A study of Homo sapiens with 2 samples.

Results

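The DLX5 and DLX6 locus on the long arm of chromosome 7 was described through the TCF3::HLF-associated chromatin interactions that reach it. An interaction was counted as a member when at least 1 of its 2 bins of 5 kb, both on chromosome 7, lay within 100 kb of the body of DLX5 or DLX6 (GENCODE release 44, hg38). Of 49245 listed interactions, 43 (0.0873%) met this rule, out of 2484 on chromosome 7. The data are HiChIP, in which DNA pieces that touch each other in the nucleus are joined, enriched with an antibody and sequenced as pairs. They come from HAL-01, a leukemia cell line with t(17;19), which makes the fusion transcription factor TCF3::HLF. All cells carried Cas9GFP and an sgRNA against wild-type TCF3 and were selected for stable knockout, so that the E2A antibody, which is directed at TCF3, would bind the fusion protein with little normal TCF3 present. The design held this single condition in 2 replicates, with no control condition, and the authors merged the replicates before calling interactions. No value below therefore has a replicate error, and no group could be tested against another.

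DLX5 and DLX6 encode homeodomain transcription factors of the distal-less family, which pattern the jaw, the limb buds, the developing skeleton and forebrain interneurons. The family sits in the genome as pairs of neighboring genes that are transcribed toward each other, and each pair draws on distant enhancers, some of them within the introns of other genes. DLX6-AS1, a long noncoding RNA gene, runs antisense to DLX6. SEM1, which encodes a small subunit of the proteasome, and DYNC1I1, a dynein intermediate chain gene, lie on the other side of an intergenic stretch and are known hosts of DLX5 and DLX6 limb enhancers. HLF, which gives the fusion its DNA-binding part, belongs to the PAR bZIP family and binds TTACGTAA and related sequences.

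DLX6 (ENSG00000006377.11) lies at chr7:97005553-97011040 on the plus strand, DLX5 (ENSG00000105880.7) at chr7:97020396-97024950 on the minus strand, and DLX6-AS1 (ENSG00000231764.11) at chr7:96955141-97014088 on the minus strand. The start sites of DLX6 and DLX5 are 19397 bp apart, and since the list begins at distances of 50 kb, contacts between the genes themselves could not be listed. Motif matches were counted as TTACGTAA or TTATGTAA on either strand, with TTACGTAA reading alike on both. The following sites, in 30-base windows of hg38 read on the strand of the match, are those of the bins on which the results turn. Capitals mark the match. The first 3 lie in the pair of neighboring bins that carried most interactions, the next 3 at its strongest partners and past DLX5, then those nearest to the genes, and the last 2 in the introns of distant genes.
Busiest bins, site 1, chr7:96910233-96910262, plus strand: cccttaaattcTTATGTAAggatcatttga
Busiest bins, site 2, chr7:96913021-96913050, minus strand: agcaaaggcagTTATGTAAatttgcatgaa
Busiest bins, site 3, chr7:96916253-96916282, plus strand: gtacaaactcaTTATGTAActtcctgagaa
Strongest partner, intergenic, chr7:96838001-96838030, minus strand: tttccagcctcTTATGTAActagggactga
Second partner, intergenic, chr7:96739373-96739402, minus strand: gcattctgcatTTATGTAAatccacaagta
Bin past DLX5, intergenic, chr7:97048010-97048039, minus strand: tatatacactaTTATGTAAccacaaaaatt
DLX6 intron, chr7:97009389-97009418, plus strand: attactaaattTTATGTAAaatgacaagac
Between DLX6-AS1 and DLX5, chr7:97019631-97019660, plus strand: ttgccactgttTTATGTAAaagcaaaacag
DYNC1I1 intron, chr7:95817657-95817686, minus strand: gtttaataattTTATGTAAttacgtggata
ASNS intron, chr7:97852825-97852854, plus strand: ctacttaattcTTACGTAAttcttacaaaa

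The interactions were spread unevenly over the locus. The window within 100 kb of the genes, chr7:96905553-97124950, touches 44 bins, and 12 of them were anchors, meaning a bin of at least 1 listed interaction. Of the 20 bins before DLX6, on the SEM1 side, 9 were anchors. Of the 4 bins touching the stretch from DLX6 to DLX5, 2 were anchors. Of the 20 bins past the start of DLX5, 1 was an anchor. The partner bin lay before the window in 28 interactions, past the window in 8 and within it in 7. No member interaction had a bin at a start site or in the body of SDHAF3, the next protein-coding gene past DLX5. SDHAF3 encodes an assembly factor of succinate dehydrogenase, and its body runs on past the window. Most anchors of the window thus lay on the SEM1 side of the DLX genes.

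**Figure D1:**
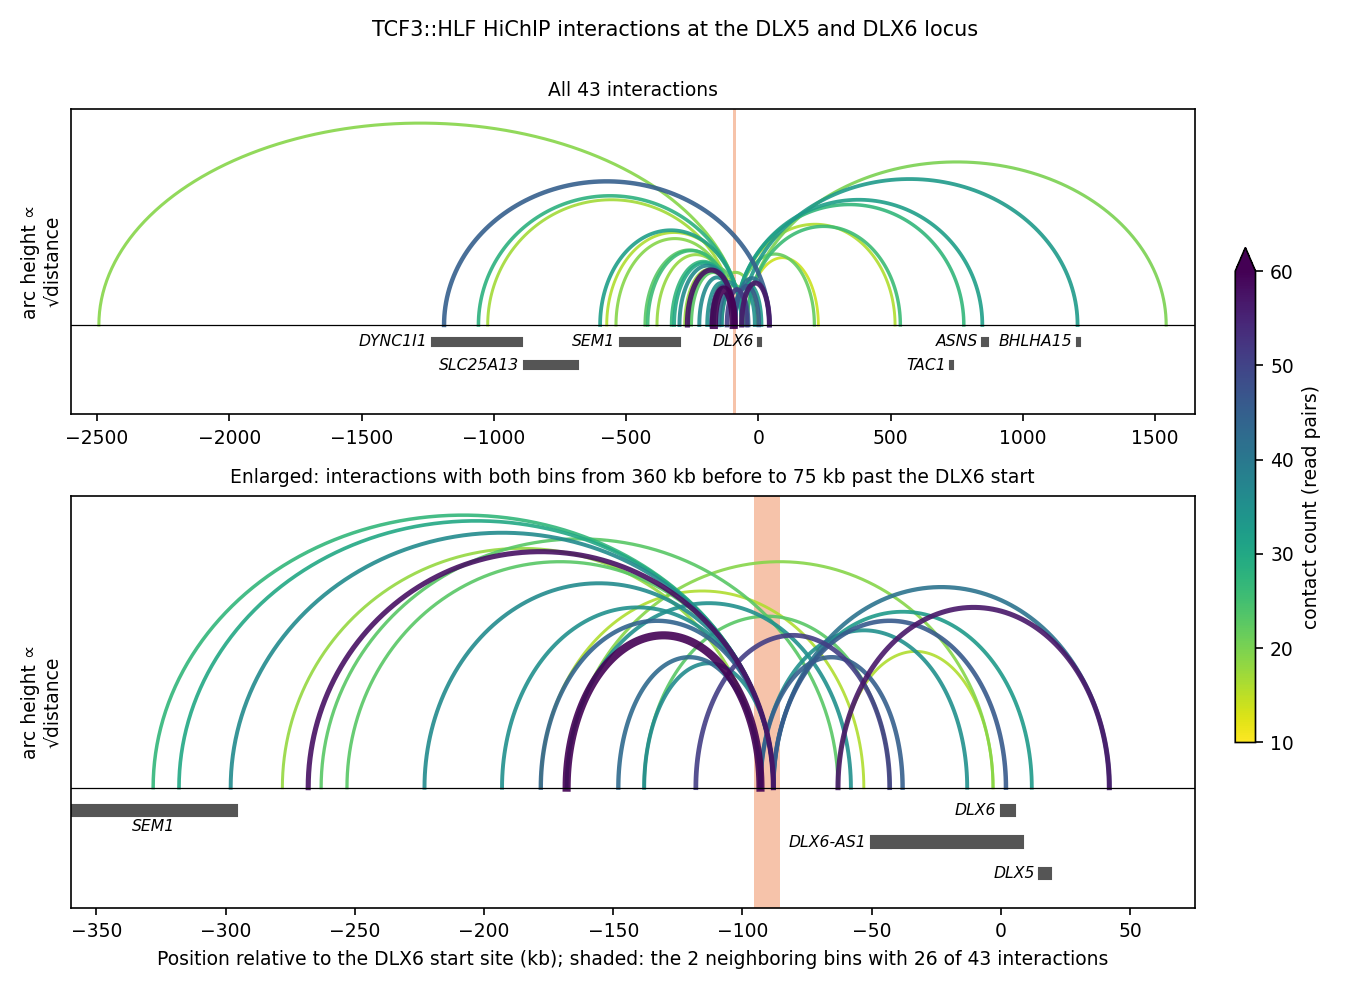
Arcs join the 2 bins of each interaction, by position relative to the DLX6 start site in kb (upper panel, all 43 interactions; lower panel, those with both bins from 360 kb before to 75 kb past the start). Color and line width give the contact count in read pairs, arc height is proportional to the square root of the distance, and gray boxes are genes. A total of 26 arcs end in the shaded pair of bins, which begins 95.6 kb and ends 85.6 kb before DLX6.

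A pair of neighboring bins, chr7:96910001-96915000 and chr7:96915001-96920000, carried 26 of the 43 interactions (60.5%; Wilson 95% interval, 45.6% to 73.6%) and 902 of the 1375 read pairs (65.6%). It is called the hub below and was singled out after its values were seen, a choice that the interval does not account for. The hub is intergenic. It ends 85553 bp before the start of DLX6 and begins 200121 bp from the start of SEM1. The bin chr7:96915001-96920000 alone had 19 interactions, 12 toward SEM1 and 7 toward or past the DLX genes. Among the 53535 anchor bins of the whole list, 158 (0.295%) had as many or more, and among the 2667 on chromosome 7 its rank was 9. Its neighbor, chr7:96910001-96915000, had 7 interactions, 5 toward SEM1 and 2 into DLX6-AS1. Of the 44 anchor bins of the members, 32 had 1 interaction (72.7%, against 78.0% of all anchor bins) and 2 had 10 or more (4.55%, against 2.10% of all anchor bins). The second of these was chr7:96835001-96840000, with 12 interactions, of which 3 met the rule.

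Hub partners lay on both sides. On the SEM1 side there were 17, of which 9 lay between SEM1 and the hub, with contact counts from 18 to 116. Of these 9 bins, 8 were intergenic and 1, chr7:96855001-96860000 with a contact count of 43, holds an exon of MARK2P10, a pseudogene. A further 6 lay within SEM1, with contact counts from 18 to 36, and 2 lay beyond it, with contact counts of 17 and 19. On the DLX side there were 9, of which 5 lay from DLX6-AS1 to the anchor past DLX5 and 4 lay further away. The median contact count of the 17 was 30 and that of the 9 was 33. The hub contacts thus did not run to the DLX genes alone. The partners between SEM1 and the hub also included the strongest contact.

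A total of 4 interactions had a bin within 10 kb of a start site of DLX5 or DLX6, and 2 of them came from the hub. The contact count gives the read pairs linking a pair of bins, and intervals are exact Poisson 95% intervals, which cover counting error only. The hub and the bin that holds the DLX6 start, 90 kb apart, were joined by 46 read pairs (33.7 to 61.4; q-value of the interaction caller, 1.08e-17). This was 1.77 times the median of listed interactions at the same distance. The partner bin holds the DLX6 intron site shown above. The hub and the bin between DLX6-AS1 and DLX5, 100 kb apart, were joined by 33 read pairs (22.7 to 46.3; q-value, 2.22e-09). This was the single interaction within 10 kb of the DLX5 start, and its merged range, chr7:97015001-97025000, covers the DLX5 gene. The merged group had a summed contact count of 51, with a share of 1 of its bin pairs significant. No bin pair listed singly had its own bin on the DLX5 start. The other 2 reached the bin just before DLX6, chr7:97000001-97005000. From chr7:96835001-96840000, 165 kb away, the contact count was 19 (11.4 to 29.7), and from chr7:96940001-96945000, 60 kb away, it was 16 (9.15 to 25.98). Both lay below the median of their distances, at 0.776 and 0.593 times, and the interval of the former included the median of 24.5 while that of the latter ended below the median of 27. On the DLX6 side, the merged range of the former, chr7:97000001-97010000, also covers the bin that holds the DLX6 start. Its merged group had a summed contact count of 37, with a share of 1 of its bin pairs significant.

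DLX6-AS1, the antisense gene, had a bin of 10 of the 43 interactions in its body. Its bin chr7:96960001-96965000 was an anchor of 5 interactions, with contact counts from 14 to 51. The strongest of them joined it to chr7:96885001-96890000, 75 kb away and intergenic, with a contact count of 51 (37.97 to 67.1). The hub reached DLX6-AS1 in 2 bins outside DLX6, with contact counts of 45 at 55 kb and 35 at 80 kb. The DLX6 start bin, with its 46 read pairs to the hub, lies in the body of DLX6-AS1 as well. The contact at 80 kb belonged to the same merged group as the contact with the DLX6 start bin. This group, which joined chr7:96910001-96920000 to chr7:96990001-97010000, had a summed contact count (sumCC) of 227, the largest at the locus, with a share of 0.875 of its bin pairs significant. The hub and the DLX6 promoter stretch were thus joined by a block of neighboring bin pairs.

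The strongest contact of the locus joined chr7:96835001-96840000 and the hub bin chr7:96910001-96915000, both intergenic and 75 kb apart. It was supported by 116 read pairs (95.9 to 139; p-value of the caller, 1.30e-81) and a sumCC of 195. It was the largest contact count of any interaction on chromosome 7, ranked 59 in the whole list and stood at 4.46 times the median of its distance, rank 3 of 902. The bin chr7:96735001-96740000, between SEM1 and the hub, was joined to the other hub bin, chr7:96915001-96920000, by 58 read pairs at 180 kb (44.04 to 74.98; p-value, 1.45e-30). This was 2.32 times the median of its distance and rank 9 of 442. Both partner bins hold an HLF motif match shown above. The interval of the first lay above those of all other members. The interval of the second overlapped that of the next hub contact on this side, with chr7:96825001-96830000, at 44 read pairs (32.0 to 59.1).

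SEM1 was contacted in its body by 6 hub interactions and by no other member. Toward its start site, contact counts were 27 at chr7:96675001-96680000, 30 at chr7:96685001-96690000 and 36 at chr7:96705001-96710000, the bin that holds the start site. Deeper in the gene they were 26, 18 and 23 at chr7:96585001-96590000, chr7:96620001-96625000 and chr7:96575001-96580000. The start site contact, 210 kb from the hub, had an interval from 25.2 to 49.8, a sumCC of 76 and 1.44 times the median of its distance. Its lower bound lay just above that median of 25. The intervals of the 6 values overlapped one another.

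Past DLX5, the anchor was chr7:97045001-97050000, intergenic, with 3 interactions. It was joined to the hub with a contact count of 41 (29.4 to 55.6) at 130 kb and to chr7:96940001-96945000 with a contact count of 57 (43.2 to 73.9) at 105 kb. The latter was 2.28 times the median of its distance, rank 31 of 686. The third contact reached 1230 kb away into a bin of DYNC1I1, chr7:95815001-95820000, with 45 read pairs (32.8 to 60.2; p-value, 2.54e-29). This was 2 times the median of its distance and rank 2 of 28. All 3 thus spanned both DLX genes with no bin in either.

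Some interactions spanned more than 500 kb, and 4 of the 43 spanned more than 1 Mb (9.30%, against 13.7% of all listed interactions). DYNC1I1 held a bin in 3 interactions. Besides the contact just described, it was joined to chr7:96940001-96945000 with a contact count of 28 at 995 kb, 1.33 times the median of its distance. DYNC1I1 was also joined to the hub with a contact count of 17 at 935 kb, from a bin with 4 motif matches. That count was 0.739 times the median of its distance, rank 41 of 53. CASD1, a sialic acid O-acetyltransferase gene, was the farthest, at 2430 kb, with a contact count of 19 (11.4 to 29.7), 0.826 times the median of its distance. BHLHA15 (MIST1), a bHLH factor of secretory cells and plasma cells, and TECPR1, an autophagy gene, shared the bin joined to chr7:96940001-96945000 at 1270 kb, with 33 read pairs (22.7 to 46.3), 1.69 times the median of its distance. ASNS, asparagine synthetase, was reached by the hub at 935 kb with a contact count of 32 (21.9 to 45.2), 1.39 times the median of its distance. Its bin holds the single TTACGTAA match of all member bins, shown above. TAC1 and SLC25A13, which lie between these genes and the locus, had no member bin at a start site or in the body.

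The median contact count was 28 (95% interval from order statistics, 23 to 35; range, 14 to 116), against 24 over all listed interactions (range, 7 to 615). The median distance was 200 kb, against 255 kb. Since contact counts fall with distance, each was set against the median at its own distance. Above this median lay 27 of 43 (62.8%; Wilson 95% interval, 47.9% to 75.6%), against 47.6% of the list, while 1 lay at it and 15 lay below. At 2 times the median or more lay 4 of 43 (9.30%; 3.68% to 21.6%), against 3.20%. A q-value under 1e-05 was given to 31 of 43 (72.1%; 57.3% to 83.3%), against 66.5%. The intervals treat the interactions as independent, although 26 of them share the hub bins. Above the median lay 18 of the 26 hub interactions (69.2%) and 9 of the other 17 (52.9%), and at 2 times the median or more lay 2 of each. The hub members had a median contact count of 32.5 at a median distance of 182.5 kb, and the other 17 had 23 at 270 kb.

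FitHiChIP merged neighboring significant bin pairs into groups, and 12 of 43 interactions (27.9%; 16.7% to 42.7%) belonged to a group of more than 1 bin pair, against 7.69% of the list. Of these 12, 10 used the hub. Beside the group at the DLX6 start, sumCC reached 195 at the strongest contact, 85 for the hub and chr7:96780001-96785000, 83 for the hub and the DLX6-AS1 bin at 55 kb and 82 for the hub and chr7:96810001-96815000. The contact counts of the last 3 were 36, 45 and 35.

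HLF motif matches stood in at least 1 bin of 32 of 43 interactions (74.4%; 59.8% to 85.1%), against 66.8% of the list. Of the 32, 26 were hub interactions, which share the 3 matches of the hub, and without the hub bins the share was 6 of 17 (35.3%). Of the 26 hub partner bins, 15 held a match (57.7%; 38.9% to 74.5%). Counting the 25 partner bins that themselves had under 10 interactions, 14 did (56%; 37.1% to 73.3%). Among partner bins under 10 interactions of all anchors with 10 or more, 29.6% of 14969 did. The sets differ, as the hub bin chr7:96910001-96915000 had only 7 interactions itself. They were also not matched for base composition. Both bins held a match in 17 interactions (39.5%; 26.4% to 54.4%), against 16.2% of the list, and 15 of the 17 were hub interactions. Among the 16 member bins that were neither hub nor hub partner, 3 held a match. Over all 44 anchor bins, 20 did (45.5%; 31.7% to 59.9%), against 31.5% of all anchor bins. The bins chr7:96940001-96945000 and chr7:96960001-96965000, with 8 and 5 interactions, held none. In the RefSeq promoter of DLX6 (GRCh38.p14, 250 bases before to 50 after the start) no match was found, as in those of DLX6-AS1 and SEM1, against 355 of 35116 promoters (1.01%) with one. The DLX5 promoter was not analysed here. A match is a letter match and not a measured binding site.

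Repeated sequence was unevenly present in these bins. The share of 31-mers found more than once in hg38 was 14.3% in chr7:96915001-96920000, 0.0604% in its hub neighbor and 13.7% in the anchor past DLX5, with a median of 6.28% over the 44 anchor bins. It was highest, 74.7%, in chr7:97780001-97785000, which the hub reached with a contact count of 27, followed by 40.8% in chr7:96810001-96815000, where the hub contact count was 35, and 30.2% in the ASNS bin. The bin chr7:96940001-96945000 holds RN7SL252P, a pseudogene of the signal recognition particle RNA. The bins of a pair had at most 23 of their 31-mers in common, and 0 of 43 pairs shared 500 or more, against 0.0264% of the list. The part of repeats in these contacts was not tested.

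At the edge of the window, the 5 interactions of chr7:96910001-96915000 that lay just inside, 90.6 kb from DLX6, had contact counts of 116, 18, 19, 43 and 23. The nearest outside it were 9 further interactions of chr7:96835001-96840000, at 165.6 kb, with contact counts from 21 to 48. The end of chr7:96915001-96920000 lies 100396 bp from DLX5, just past the limit for DLX5 alone. Under the same rule DLX6 alone had 43 interactions and DLX5 alone 22, all of them among the 43.

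Other members of the DLX family and related genes were counted by the same rule. Of 19970 protein-coding genes, the median had 6 interactions within 100 kb, 2.18% had as many as DLX6 or more, and 10.7% had as many as DLX5 or more. The place of DLX6 depends on this limit, since the hub lies 85.6 to 95.6 kb before it. With a window of 50 kb the locus had 14 interactions, against 43, and the other genes were not counted at that window. DLX1 and DLX2, the DLX pair on chromosome 2, together had 26, with a largest contact count of 42. Their busiest anchor had 22 interactions, a count that can include interactions outside the rule. DLX3 and DLX4, the pair on chromosome 17, together had 3, while their busiest anchor had 8 by the same count. MSX1, a related homeobox gene, had 19 and MSX2 had 3. Of the endothelin signal that acts upstream of DLX5 and DLX6 in the jaw, the ligand gene EDN1 had 33, with a contact count of 93 within 10 kb of its start, and its receptor gene EDNRA had 7, while HAND2, a target of the signal, had 3. The ligand genes BMP2 and BMP4 had 8 and 6, and TP63, which acts upstream in the limb, had 1. RUNX2 and SP7, transcription factor genes of bone, had 7 and 6, and GAD1 and GAD2, which encode the enzymes that make GABA in interneurons, had 8 and 0. Of these 16 genes, 15 had at least 1, their median was 6.5, close to that of all protein-coding genes, and 0 had as many as DLX6, while EDN1, DLX1 and DLX2 had more than the 22 of DLX5.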

How the data were processed

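TCF3::HLF HiChIP of 2 replicates of 1 condition was used. The authors trimmed reads with Trim Galore 0.6.6, merged the replicates, aligned to hg38 with BWA-MEM, parsed pairs with pairtools without its dedup step, called peaks with MACS2 and interactions with FitHiChIP (5-kb bins, 50 kb to 3 Mb, q-value under 0.01, nearby contacts merged). For the HiChIP reads, versions of the other tools are not given in the sources used here. The deposited contact counts and sumCC are not normalized. The deposited p-value and q-value come from the caller's background for distance and coverage, and the deposited fraction says how much of a merged group was significant. All contact counts add up to 1268490, and since copies of read pairs were not removed, Poisson intervals are a lower limit of the error.

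Counts, ranks, medians and motif matches were computed from the list, with 1-based positions. Named interactions were those within 10 kb of a DLX5 or DLX6 start and the 5 with the largest contact count, the smallest p-value and the largest sumCC. Others were named to account for the bins and genes reached. The members, lists and rules were chosen with earlier results of these data known, and 1 further related gene is not reported here. The code was tested on simulated data. Tables were handled in pandas 2.3.3 and numpy 2.4.6 under Python 3.11.15, intervals came from scipy 1.17.1, sequences were read with samtools 1.23.1 and pyfaidx 0.9.0.4, and plots were drawn with matplotlib 3.10.9.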

Additional observations from a re-analysis of the deposited data

How the results depend on the processing

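Of 24 alternatives, 18 left the value within 1.5 times the main count or within its interval. The number of interactions was 1 with a window of 0 kb and 14 with 50 kb, against 43, and ranged from 31 to 55 under the other alternatives. The number reaching a start site was 1 with the bin that holds the start site, against 4. The share with an HLF motif, 74.4%, was 100% with at most 1 mismatch to TTACGTAA (91.2% of the list), 2.33% with TTACGTAA alone (8.34% of the list) and 35.3% without the hub bins. The median contact count ranged from 23 to 34, and the busiest anchor had 14 to 26 interactions. Leaving out the hub bins, bins of over 20% multi-copy 31-mers (36 interactions left) or all but 1 interaction per merged group (42 left) was chosen after seeing the data. No paired analysis was possible because the authors merged both replicates into 1 list, and for the same reason neither replicate could be left out. Contacts under 50 kb are not in this list, so the near surroundings of both genes were not measured here.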
